A study of Mus musculus with 58 samples.

Results

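The genes of MHC class II antigen presentation were followed in the brains of injured and sham-operated mice that express human APOE3 or APOE4. The set held 7 members, Cd74, H2-Aa, H2-Ab1, H2-Eb1, H2-DMa, H2-DMb1 and Ciita, taken as the rows of the deposited count table whose gene symbol was one of these names. All 7 were found among the 15171 genes of the table, and none was left out by a filter on low counts. Levels are given as CPM, counts scaled to a common library size by TMM factors.

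RNA was sequenced from 58 mice, each a separate library of cortex and hippocampus frozen together from the side and level of the injury. TBI mice had a controlled cortical impact onto the left parietal cortex through a craniotomy, and sham mice had the same anaesthesia and craniotomy with no impact. All mice were 3 months old, of both sexes and on a C57BL/6 background, and tissue was taken at day 14 after surgery. All carried targeted replacement of the mouse Apoe gene by human APOE3 (E3) or APOE4 (E4), so no group had mouse Apoe, and they had either 2 functional copies of Abca1 (Abca1+/+) or a single one (Abca1+/-, from breeding with Abca1+/- mice). The groups were E3/Abca1+/+ with 8 sham and 8 TBI mice, E3/Abca1+/- with 7 sham and 6 TBI, E4/Abca1+/+ with 7 sham and 7 TBI, and E4/Abca1+/- with 7 sham and 8 TBI. The loss of Abca1 was in all tissues, and the libraries held every cell type of the dissected tissue, so that in these bulk samples fewer cells of a type and less RNA per cell cannot be told apart.

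MHC class II molecules are pairs of an alpha and a beta chain that carry peptides from the endosome to the cell surface, where CD4 T cells read them. The invariant chain CD74 fills the groove of a new pair until proteases in the endosome cut it down, and the DM molecule then exchanges its remnant for a peptide. CIITA, the class II transactivator, is recruited to a conserved promoter module of these genes. In the healthy brain class II is scarce in the parenchyma and is found on border macrophages, dendritic cells and some microglia, and it is known to increase on myeloid cells after injury.

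Of the members, 5 share a stretch of the MHC on chromosome 17. In the GRCm38 (mm10) assembly H2-DMa lies at 34119541 to 34139101, H2-DMb1 at 34153072 to 34160230, H2-Ab1 at 34257689 to 34269419, H2-Aa at 34282744 to 34287823 on the minus strand, and H2-Eb1 at 34305867 to 34316674. H2-DMa shares exonic bases with Brd2 on the other strand, and since the strand setting of the counting was not stated, reads of this overlap cannot be told apart. Of the 50-base windows of the H2-DMb1 transcript, 27.2% are also in its neighbour H2-DMb2, which the table did not list.

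Promoter letters are shown for H2-DMb1, H2-Aa and H2-Eb1, in this order a loading gene, an alpha chain and a beta chain. Their start regions hold the same pair of short motifs. The stretches come from RefSeq promoter windows of GRCm38.p6 that run from 250 bases before to 50 bases after each start site. They lie at chr17:34153082-34153149 on the plus strand for H2-DMb1, chr17:34287852-34287919 on the minus strand for H2-Aa and chr17:34305761-34305827 on the plus strand for H2-Eb1. Capitals mark GNAACT, the core of the X box, and ATTGG, the inverted CCAAT letters of the Y box.
H2-DMb1: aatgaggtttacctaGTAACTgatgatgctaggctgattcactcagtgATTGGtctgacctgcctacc
H2-Aa: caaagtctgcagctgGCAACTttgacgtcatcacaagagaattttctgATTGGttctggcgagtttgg
H2-Eb1: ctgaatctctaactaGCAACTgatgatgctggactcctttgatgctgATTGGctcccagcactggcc

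The motifs were 27 bases apart in H2-DMb1 and H2-Aa and 26 in H2-Eb1. GNAACT on either strand was in 42.8% and ATTGG in 37.4% of all 32851 RefSeq mouse windows of this length. The pair in this order, on the same strand and with 10 to 40 bases between, was in 439 windows (1.34%). Neither of the RefSeq windows of H2-DMa held the pair in this order and spacing, though the window at 34125268 to 34125567 held each motif. Variants of the motifs were not searched. The letters were chosen after these windows had been read, and a match is a description of the sequence.

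Libraries held 4421308 to 37877346 counted reads, and Abca1+/- libraries were deeper than Abca1+/+ libraries (median 18871446 against 8350021), so that in every comparison of Abca1 genotypes the genotype and the depth cannot be told apart. Abca1 itself was lower in E3/Abca1+/- than in E3/Abca1+/+ sham mice, by a log2 fold change of -0.45 (edgeR quasi-likelihood test, adjusted p = 0.00999). The differences in the other pairs of groups were -0.71 in E3 TBI (adjusted p = 0.124), -0.36 in E4 sham (adjusted p = 0.0785) and, among injured E4 mice, -0.18 (adjusted p = 0.755). The choroid plexus gene Ttr ranged from 0 to 1928 CPM between mice, and the groups were uneven. The summed level of the choroid plexus genes reached 25.1 CPM in E3/Abca1+/+ sham mice and 1014 to 2009 CPM in the other groups. Ttr was called by edgeR for TBI in E3/Abca1+/+ (log2 fold change 5.05, adjusted p = 0.0125) and for Abca1 in E3 sham (6.18, adjusted p = 0.0166). Brain tissue markers were present in every library, with the summed level of the 4 neuronal genes at 3879 to 6566 CPM. In the E4/Abca1+/- groups 3 libraries stood apart. TBI replicate 6 had the highest Cd74, and its values are given beside the results they touch. TBI replicate 8 had the lowest level of the hippocampal genes Prox1 (7.95 CPM) and Lct (1.83 CPM) of all mice, and sham replicate 2 had the highest level of the microglial activation gene Clec7a among sham mice, at 9.37 CPM. Without either of the last 2, edgeR's quasi-likelihood test called the same number of members after TBI, 6 of 7 in E4/Abca1+/- and 7 of 7 averaged over genotypes, and 0 in the comparisons of Abca1, isoform and sex that hold the library.

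Every member was measured above 0 in every mouse. The lowest count was 21 reads for Cd74, 8 for H2-Aa, 7 for H2-Ab1, 6 for H2-Eb1, 42 for H2-DMa, 3 for H2-DMb1 and 4 for Ciita. Per kilobase of transcript, where levels of different genes can be compared, H2-DMa led in the 29 sham mice with a median of 5.31 CPM per kb. Cd74 followed at 3.48 CPM per kb, H2-Aa at 1.90, H2-Ab1 at 1.27, H2-Eb1 at 1.05, H2-DMb1 at 0.706 and Ciita at 0.195. In the 29 TBI mice the order at the top was the other way round. Cd74 had a median of 20.0 CPM per kb, H2-Aa 10.998, H2-Ab1 7.14, H2-DMa 6.45, H2-Eb1 5.68, H2-DMb1 2.14 and Ciita 0.241. Within single mice, the ratio of Cd74 to H2-DMa per kb had a median of 0.640 (range 0.261 to 1.81) in sham and 3.10 (1.25 to 12.6) in TBI mice. The ratio of Cd74 to H2-Aa per kb was 1.88 in sham and 1.78 in TBI mice. That of H2-DMa to H2-DMb1 per kb, both chains of one heterodimer, was 8.04 (4.03 to 14.5) in sham and 3.57 (1.98 to 6.22) in TBI mice. The levels of both DM genes are uncertain. H2-DMa overlaps Brd2, and 27.2% of the H2-DMb1 windows are shared with H2-DMb2. The part of such reads in these levels and ratios was not tested.

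The first question of the design was what the injury did within each genotype. Cd74 and the 3 chain genes H2-Aa, H2-Ab1 and H2-Eb1 rose in all 4 genotypes by log2 fold changes of 2.11 to 3.73, and H2-DMb1 rose in all 4 by 1.24 to 1.57. H2-DMa rose by 0.42 and 0.54 in the Abca1+/- genotypes. Ciita passed the test in none of them. Counted as members higher in TBI at an adjusted p under 0.05, this made 5 of 7 in E3/Abca1+/+, 6 of 7 in E3/Abca1+/-, 5 of 7 in E4/Abca1+/+ and 6 of 7 in E4/Abca1+/-, with no member lower. Of all genes tested, 13.3%, 13.7%, 9.24% and 19.7% were called higher in the same 4 comparisons. The median log2 fold change of the 7 members was 2.15, 2.11, 2.21 and 3.36, and that of all genes 0.01, 0.01, 0.00 and 0.03.

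**Figure D1:**
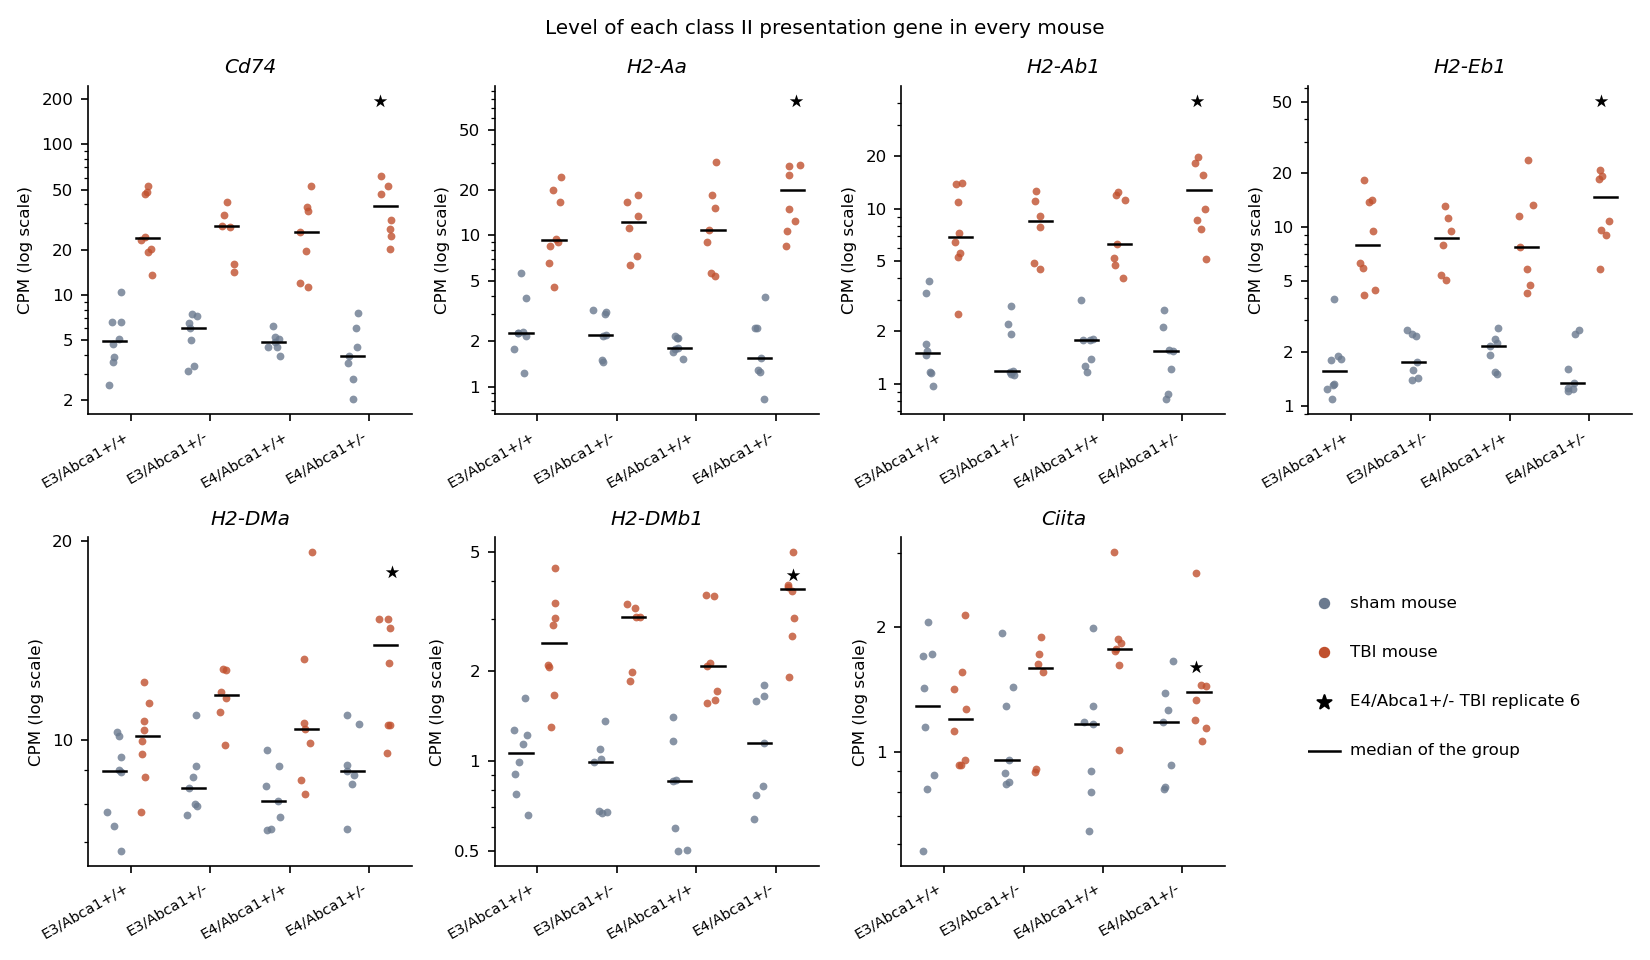
CPM on a log axis of each of the 7 members (panels) in every mouse (points) of the 8 groups, with a bar at the group median and a star for E4/Abca1+/- TBI replicate 6. Cd74 lay between 2.03 and 10.5 CPM in the 29 sham mice and between 11.3 and 193 CPM in the 29 TBI mice, whereas Ciita overlapped between sham and TBI in every genotype.

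Cd74 encodes the invariant chain and lies on chromosome 18 at 60803848 to 60812652 (GRCm38). In sham mice its lowest, median and highest levels were 2.53, 4.92 and 10.5 CPM in E3/Abca1+/+, 3.12, 6.03 and 7.48 CPM in E3/Abca1+/-, 3.90, 4.91 and 6.25 CPM in E4/Abca1+/+ and 2.03, 3.95 and 7.53 CPM in E4/Abca1+/-. After TBI they were 13.6, 23.7 and 52.9 CPM in E3/Abca1+/+, 14.1, 28.5 and 41.0 CPM in E3/Abca1+/-, 11.3, 26.0 and 52.4 CPM in E4/Abca1+/+ and 20.3, 39.0 and 193 CPM in E4/Abca1+/-. Every TBI mouse lay above every sham mouse, also across genotypes. The fold changes were 5.81 (95% interval of the log2 fold change 1.88 to 3.19), 4.81 (1.72 to 2.81), 5.54 (1.81 to 3.13) and 13.2 (2.69 to 4.76) in the order E3/Abca1+/+, E3/Abca1+/-, E4/Abca1+/+ and E4/Abca1+/-. The adjusted p of edgeR's quasi-likelihood test was 5.13e-06, 9.10e-06, 9.84e-05 and 1.92e-05. E4/Abca1+/- TBI replicate 6 held the 193 CPM, and the other 7 mice of that group lay between 20.3 and 61.2 CPM. Without it the log2 fold change in E4/Abca1+/- was 3.10 (2.48 to 3.73), and the call did not change.

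H2-Aa is the alpha chain of the I-A molecule. It ranged from 0.822 to 5.60 CPM in the 29 sham mice, with a median of 2.15 CPM. After TBI its lowest, median and highest levels were 4.58, 9.29 and 24.4 CPM in E3/Abca1+/+, 6.32, 12.3 and 18.5 CPM in E3/Abca1+/-, 5.36, 10.9 and 30.7 CPM in E4/Abca1+/+ and 8.47, 20.0 and 77.6 CPM in E4/Abca1+/-. TBI and sham mice did not overlap in 3 genotypes. In E3/Abca1+/+ the lowest TBI mouse, at 4.58 CPM, lay below the highest sham mouse, at 5.60 CPM. The log2 fold changes were 2.15 ± 0.35 (SE), 2.35 ± 0.26, 2.82 ± 0.36 and 3.73 ± 0.49 in the same order of genotypes, with adjusted p of 1.01e-04, 7.62e-06, 1.08e-04 and 1.66e-05 by edgeR's quasi-likelihood test. Without replicate 6 of the E4/Abca1+/- TBI group the last was 3.23.

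H2-Ab1, the beta chain of I-A, was the lower of the pair. Sham mice held 0.820 to 3.88 CPM, with a median of 1.54 CPM. TBI mice held 2.50 to 14.0 CPM in E3/Abca1+/+ (median 6.87), 4.51 to 12.6 CPM in E3/Abca1+/- (median 8.46), 4.002 to 12.4 CPM in E4/Abca1+/+ (median 6.25) and 5.19 to 41.1 CPM in E4/Abca1+/- (median 12.8). Its groups overlapped only in E3/Abca1+/+, where the lowest TBI mouse, at 2.50 CPM, lay below the highest sham mouse, at 3.88 CPM. Log2 fold changes of H2-Ab1 were 2.20 ± 0.35, 2.28 ± 0.28, 2.21 ± 0.30 and 3.36 ± 0.42 (SE), all called by edgeR, and without replicate 6 the last was 2.96. Per kb, the ratio of H2-Aa to H2-Ab1 had a median of 1.36 (range 0.632 to 3.61) in sham and 1.61 (1.27 to 2.65) in TBI mice.

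H2-Eb1 is the beta chain of I-E, whose alpha chain gene H2-Ea carries a promoter defect in C57BL/6 mice and was not listed in the table. Sham mice held 1.08 to 3.96 CPM, with a median of 1.75 CPM. TBI mice held 4.16 to 18.3 CPM in E3/Abca1+/+ (median 7.90), 5.07 to 13.1 CPM in E3/Abca1+/- (median 8.66), 4.24 to 23.6 CPM in E4/Abca1+/+ (median 7.71) and 5.80 to 50.6 CPM in E4/Abca1+/- (median 14.7). As for Cd74, the lowest TBI mouse lay above the highest sham mouse. For H2-Eb1 the log2 fold changes were 2.34 ± 0.34, 2.11 ± 0.24, 2.25 ± 0.36 and 3.44 ± 0.43 (SE), all called by edgeR, and without replicate 6 the last was 2.98.

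H2-DMb1, the beta chain of the DM peptide exchanger, had few reads. Sham mice held 0.501 to 1.80 CPM, with a median of 0.991 CPM. TBI mice held 1.30 to 4.44 CPM in E3/Abca1+/+ (median 2.48), 1.86 to 3.36 CPM in E3/Abca1+/- (median 3.04), 1.56 to 3.61 CPM in E4/Abca1+/+ (median 2.09) and 1.91 to 4.99 CPM in E4/Abca1+/- (median 3.78). Within a genotype the groups overlapped only in E3/Abca1+/+. The log2 fold changes were 1.24 ± 0.24, 1.57 ± 0.21, 1.34 ± 0.29 and 1.55 ± 0.24 (SE), with adjusted p of 5.92e-04, 5.08e-05, 0.00454 and 9.72e-05 by edgeR's quasi-likelihood test. At 3 to 163 reads per mouse, single values of H2-DMb1 carry a large counting error.

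H2-DMa, the alpha chain of DM, changed least of the structural genes. Its lowest, median and highest levels in sham mice were 6.80, 8.97 and 10.3 CPM in E3/Abca1+/+, 7.71, 8.46 and 10.9 CPM in E3/Abca1+/-, 7.31, 8.08 and 9.66 CPM in E4/Abca1+/+ and 7.34, 8.98 and 10.9 CPM in E4/Abca1+/-. After TBI they were 7.79, 10.2 and 12.2 CPM, 9.83, 11.7 and 12.8 CPM, 8.27, 10.4 and 19.2 CPM and 9.56, 13.9 and 17.99 CPM in the same order. Sham and TBI mice overlapped in all 4 genotypes. In edgeR's quasi-likelihood fits TBI minus sham was on the log2 scale 0.24 ± 0.11 (SE, adjusted p = 0.115), 0.42 ± 0.09 (0.00266), 0.45 ± 0.16 (0.0724) and 0.54 ± 0.13 (0.00462). In E3/Abca1+/- the call was lost in libraries thinned to the lowest total, where the log2 fold change was 0.30 (adjusted p = 0.109). In E4/Abca1+/+ a call was made by DESeq2 (adjusted p = 0.0497), by edgeR's exact test (0.0432), in a fit over all mice (0.0174) and in thinned libraries (0.0159), and also without TBI replicate 3 (0.0464) or TBI replicate 4 (0.0279).

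Ciita encodes the transactivator and lies on chromosome 16 at 10480059 to 10528418 (GRCm38), where it overlaps Dexi on the other strand. In sham mice it ranged from 0.578 to 2.06 CPM, with a median of 1.17 CPM, and in TBI mice from 0.897 to 3.02 CPM, with a median of 1.45 CPM. The groups overlapped in every genotype. The log2 fold changes by edgeR were 0.02 (95% interval -0.51 to 0.56, adjusted p = 0.970) in E3/Abca1+/+, 0.26 (-0.26 to 0.78, adjusted p = 0.510) in E3/Abca1+/-, 0.66 (0.09 to 1.22, adjusted p = 0.119) in E4/Abca1+/+ and 0.40 (-0.05 to 0.85, adjusted p = 0.169) in E4/Abca1+/-. In E4/Abca1+/+ the call depended on 1 sham library, since without sham replicate 1 the log2 fold change was 0.91 (adjusted p = 0.0308). Ciita had 4 to 62 reads per mouse.

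Counted by overlap, all TBI mice lay above all sham mice for 2 members in E3/Abca1+/+ (Cd74 and H2-Eb1) and for the same 5 members in each of the other genotypes (Cd74, H2-Aa, H2-Ab1, H2-Eb1 and H2-DMb1). Over all genes, this held for 4.36% in E3/Abca1+/+, 6.57% in E3/Abca1+/-, 3.76% in E4/Abca1+/+ and 7.36% in E4/Abca1+/-. A log2 fold change of at least 2 was reached by Cd74 and the 3 chain genes in each genotype, and by 1.26%, 1.15%, 1.12% and 1.77% of all genes.

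**Figure D2:**
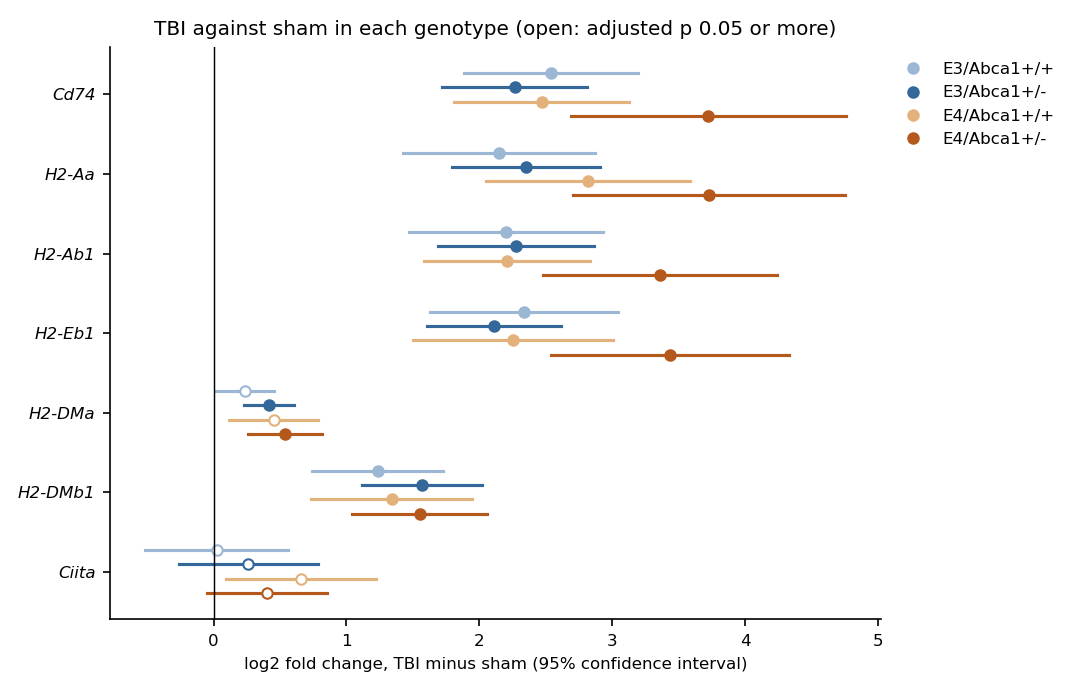
Log2 fold change of TBI over sham (x axis) with its 95% interval for each member and genotype, filled where the adjusted p of edgeR's quasi-likelihood test was under 0.05 and open otherwise. Cd74 and the 3 chain genes lie between 2.11 and 3.73, H2-DMb1 between 1.24 and 1.57, H2-DMa between 0.24 and 0.54 and Ciita between 0.02 and 0.66.

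Averaged over the 4 genotypes in a fit of all 58 mice, all 7 members were higher after TBI, beside 29% of all genes. The log2 fold changes were 2.75 ± 0.20 (SE) for Cd74, 2.76 ± 0.21 for H2-Aa, 2.51 ± 0.19 for H2-Ab1, 2.53 ± 0.19 for H2-Eb1, 1.42 ± 0.13 for H2-DMb1 and 0.41 ± 0.06 for H2-DMa. Ciita, which no single genotype called, was higher by 0.34 ± 0.12 (edgeR quasi-likelihood test, adjusted p = 0.0197). Ranked by this log2 fold change among the 15171 genes, H2-Aa was number 96, Cd74 98, H2-Eb1 111, H2-Ab1 113, H2-DMb1 368, H2-DMa 1729 and Ciita 2081.

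The stretch of chromosome 17 from H2-DMa to H2-Eb1 held rows for 11 genes. In the averaged fit, which called 29% of all genes higher, 10 of the 11 were higher after TBI, including the members of the stretch. The non-members among them were the peptide transporter genes Tap1 (log2 fold change 1.52) and Tap2 (0.81), the immunoproteasome genes Psmb8 (1.88) and Psmb9 (1.72), and H2-Ob (1.58). The exception was Brd2, a bromodomain gene, at 0.04 (edgeR, adjusted p = 0.107), which overlaps H2-DMa.

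The next question was whether Abca1 copies changed these levels. By edgeR's quasi-likelihood test no member passed in any of the 4 comparisons of Abca1+/- with Abca1+/+, in E3 sham, E3 TBI, E4 sham or E4 TBI, where 2.27%, 0.0923%, 0.870% and 1.36% of all genes did. At an unadjusted p under 0.05 the count was 0, 0, 0 and 4 of 7. DESeq2 and edgeR's exact test also called none. In E3 sham the 7 log2 fold changes ran from -0.25 to 0.07, in E3 TBI from -0.22 to 0.19 and in E4 sham from -0.27 to 0.44. For Cd74 the 95% intervals were -0.49 to 0.59, -0.87 to 0.43 and -0.66 to 0.31 in the same order.

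In E4 TBI mice the members with an unadjusted p under 0.05 were Cd74, H2-Aa, H2-Ab1 and H2-DMb1, beside 18.3% of all genes. Cd74 had a median of 39.0 CPM in E4/Abca1+/- and 26.0 CPM in E4/Abca1+/+, and the ranges of 20.3 to 193 and 11.3 to 52.4 CPM overlapped. Its log2 fold change was 1.09 (95% interval 0.09 to 2.08, adjusted p = 0.230 by edgeR). Those of H2-Aa, H2-Ab1, H2-Eb1 and H2-DMb1 were 1.01, 1.04, 0.92 and 0.64 (adjusted p = 0.265, 0.182, 0.280 and 0.157). H2-DMa was at 0.25 (-0.13 to 0.62) and Ciita at -0.26 (-0.74 to 0.22). In libraries thinned to the lowest total, Cd74 was at 1.04. Without replicate 6 of the E4/Abca1+/- TBI group they were 0.46 (-0.23 to 1.16, adjusted p = 0.491) for Cd74, 0.50 for H2-Aa, 0.64 for H2-Ab1, 0.47 for H2-Eb1 and 0.60 for H2-DMb1, so that the value of H2-DMb1 changed little. A fit over all 58 mice, which takes its estimate of the spread from every group, called Cd74 (adjusted p = 0.0362) and H2-Ab1 (0.0329).

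The last contrast set E4 against E3. No member passed in Abca1+/+ sham, Abca1+/+ TBI, Abca1+/- sham or Abca1+/- TBI mice by edgeR's quasi-likelihood test, by DESeq2 or by edgeR's exact test. Of all genes, 0.356%, 0.211%, 5.11% and 2.74% were called by the quasi-likelihood test. At an unadjusted p under 0.05 the counts were 1, 0, 0 and 4 of 7. The 1 member in sham mice, beside 8.81% of all genes, was H2-Aa, which had a mean of 1.87 ± 0.24 CPM (SD, n = 7) in E4/Abca1+/+ and 2.68 ± 1.40 CPM (n = 8) in E3/Abca1+/+. In Abca1+/+ TBI mice Ciita was at 0.48 (95% interval -0.01 to 0.97) and Cd74 at -0.19 (-0.90 to 0.53).

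In Abca1+/- TBI mice the members with an unadjusted p under 0.05 were Cd74 and the 3 chain genes, beside 19.1% of all genes. The E4 group is the same as in the Abca1 comparison above, so both comparisons share its 8 mice. The log2 fold changes of E4 over E3 were 1.12 (0.14 to 2.10) for Cd74, 1.13 (0.19 to 2.07) for H2-Aa, 0.97 (0.13 to 1.81) for H2-Ab1 and 1.10 (0.23 to 1.97) for H2-Eb1, with adjusted p of 0.198, 0.176, 0.192 and 0.156 by edgeR. H2-DMb1 was at 0.35, H2-DMa at 0.20 and Ciita at 0.09. Without replicate 6 of the E4/Abca1+/- TBI group the first 4 were 0.49 (-0.12 to 1.11), 0.62, 0.57 and 0.65. The fit over all 58 mice called Cd74 (adjusted p = 0.0442), H2-Aa (0.0452) and H2-Eb1 (0.0360).

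**Figure D3:**
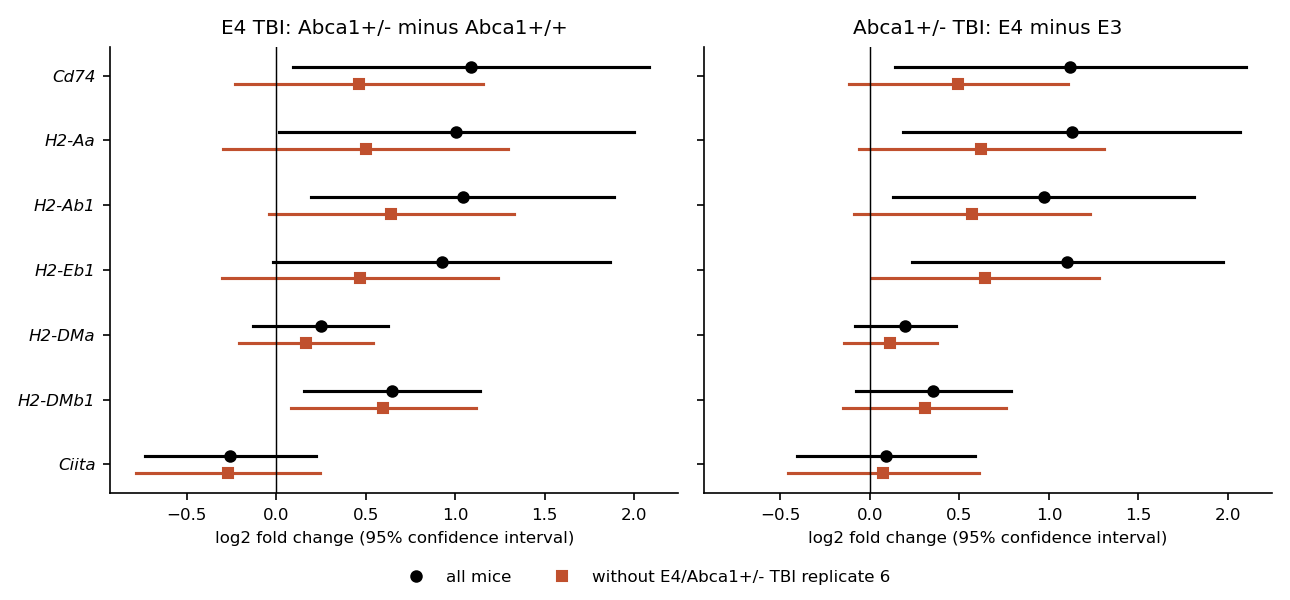
Log2 fold change (x axis) with its 95% interval of each member between injured groups, for Abca1+/- over Abca1+/+ in E4 mice and for E4 over E3 in Abca1+/- mice, with all mice and without E4/Abca1+/- TBI replicate 6. Cd74 moves from 1.09 to 0.46 and from 1.12 to 0.49 when that mouse is left out.

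The differences between responses were tested as interactions. No member passed in any of the 5 interactions, which called 0.0% of all genes, or 0.00659% (1 gene) for isoform by Abca1 in TBI mice. The fold change of TBI over sham was larger in E4/Abca1+/- than in E3/Abca1+/- by 1.46 on the log2 scale for Cd74 (0.24 to 2.68, edgeR quasi-likelihood test, adjusted p = 0.749), by 1.38 for H2-Aa and by 1.33 for H2-Eb1, the 3 members with an unadjusted p under 0.05 there, beside 6.36% of all genes. Against E4/Abca1+/+ the response of Cd74 in E4/Abca1+/- was larger by 1.26 (-0.06 to 2.57, adjusted p = 0.954). The interaction of isoform and Abca1 in TBI mice was 1.31 for Cd74 (0.06 to 2.56, adjusted p = 0.469), the 1 member with an unadjusted p under 0.05, beside 10.2% of all genes. Without replicate 6 these were 0.84 (-0.01 to 1.69), 0.63 (-0.31 to 1.58) and 0.68 (-0.30 to 1.67). In E3, the interaction of Abca1 and injury was -0.27 for Cd74 (-1.18 to 0.64), and in Abca1+/+ that of isoform and injury was -0.07 (-1.07 to 0.93). At unadjusted p under 0.05 neither held a member.

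Across the 8 groups, E4/Abca1+/- TBI had the highest mean of 6 members, all but Ciita. For Cd74 the order of means was 57.2 ± 57.0 CPM (SD, n = 8) in E4/Abca1+/- TBI, 31.1 ± 15.5 in E3/Abca1+/+ TBI, 28.0 ± 15.1 in E4/Abca1+/+ TBI and 27 ± 10.4 in E3/Abca1+/- TBI, then 5.54 ± 1.76 in E3/Abca1+/- sham, 5.44 ± 2.48 in E3/Abca1+/+ sham, 4.91 ± 0.74 in E4/Abca1+/+ sham, with E4/Abca1+/- sham last at 4.34 ± 1.90. Neighbours in this order differed by less than the larger of their SDs except at the step from TBI to sham. For the first step the larger SD is the 57.0 CPM of E4/Abca1+/- TBI, against 15.5 CPM in the next group. Without replicate 6, the E4/Abca1+/- TBI mean was 37.7 ± 15.7 CPM (n = 7), which is less than 1 SD above the next. For Ciita the order began with E4/Abca1+/+ TBI at 1.84 ± 0.60 CPM, E4/Abca1+/- TBI at 1.49 ± 0.52 and E3/Abca1+/- TBI at 1.43 ± 0.42, followed by E3/Abca1+/+ sham at 1.29 ± 0.52, and all neighbours lay within their spread.

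E4/Abca1+/- TBI replicate 6 stood apart most in Cd74 and the 3 chain genes. It was a male and had the deepest library, with 7507 reads of Cd74. Cd74 was 6.20 times the median of the other 7 mice of its group, H2-Aa 5.23 times, H2-Eb1 4.67 times and H2-Ab1 4.14 times. H2-DMa was 1.38 times, H2-DMb1 1.13 times and Ciita 1.2 times that median. Among the 29 TBI mice H2-DMa was number 2, H2-DMb1 number 3 and Ciita number 12. Its H2-DMa, at 17.99 CPM, lay above the other 7 mice of its group, which reached 15.3 CPM. Per kb, its ratio of Cd74 to H2-Aa was 1.995, within the range of the other TBI mice, while its ratio of Cd74 to H2-DMa was 12.6. H2-Oa, a chain of the DO molecule that inhibits DM and is typical of B cells, was 4.14 times the group median at 2.94 CPM, the highest of the TBI mice. H2-Ob, the other chain of DO, was 1.05 times that median at 2.60 CPM, number 6 of the 29. The B cell gene Ighm was at 65.1 CPM, also the highest, against a median of 17.3 in the other 7. The next highest TBI mouse, of the E3/Abca1+/+ group, held 55.3 CPM of Ighm, and sham mice held 8.27 to 25.3 CPM. The damage-associated microglial gene Clec7a was at 13.7 CPM against a median of 40.1, Cd44 at 0.477 times and the macrophage gene Ms4a7 at 0.312 times the median of the others, and Ctss, the protease that trims the invariant chain, was at 1.00 times. The part of these values in the result was not tested.

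Both sexes were in every group. The Cd74 median was 4.71 CPM in 14 female and 5.22 CPM in 15 male sham mice, and 32.6 CPM in 14 female and 26.0 CPM in 15 male TBI mice. By edgeR's quasi-likelihood test no member passed for female against male, where 10.1% of all genes did, or for the interaction of sex and injury, where 0.0% did. No member had an unadjusted p under 0.05 in either. The female over male log2 fold changes ran from -0.21 for H2-Eb1 (-0.60 to 0.17) to 0.17 for H2-DMb1 (-0.08 to 0.42). The interaction was 0.35 for Cd74 (-0.48 to 1.19) and 0.65 (-0.02 to 1.32) without the E4/Abca1+/- TBI replicate 6.

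How the members varied together between mice was tested within sham and within TBI mice, with group means removed from log2(CPM + 1). Among the 29 TBI mice, Cd74 went with H2-Aa (Pearson r = 0.976, Spearman rho = 0.973), H2-Ab1 (r = 0.954, rho = 0.950) and H2-Eb1 (r = 0.955, rho = 0.949), each with a permutation p of 1e-05, the smallest that 100000 within-group permutations can give, and 2e-05 after Benjamini-Hochberg adjustment over the 6 relations of the family. The relations with H2-DMa (r = 0.592, adjusted permutation p = 0.00282; rho = 0.522, adjusted p = 0.0101) and H2-DMb1 (r = 0.555, adjusted permutation p = 0.00412; rho = 0.637, adjusted p = 0.00108) were looser. That with Ciita did not pass (r = 0.294, adjusted permutation p = 0.145; rho = 0.248, adjusted p = 0.201). Leaving out the 2 mice farthest from the median of Cd74 gave r of 0.970, 0.953, 0.941, 0.533, 0.605 and 0.327 for H2-Aa, H2-Ab1, H2-Eb1, H2-DMa, H2-DMb1 and Ciita.

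Among the 29 sham mice the same relations were weaker and held for the 3 chain genes alone. They were r = 0.757 and rho = 0.685 for H2-Aa (adjusted permutation p = 0.00042 and 0.0011), r = 0.669 and rho = 0.656 for H2-Ab1 (0.0009 and 0.0011) and r = 0.780 and rho = 0.750 for H2-Eb1 (0.00012 for both). H2-DMa (r = 0.060), H2-DMb1 (r = 0.123) and Ciita (r = -0.023) did not pass, with adjusted permutation p of 0.914, 0.827 and 0.914. Without the 2 mice farthest from the Cd74 median, r was 0.625, 0.576 and 0.711 for the 3 chain genes. Whether sham and TBI relations differed was not tested, and the sham counts are small.

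**Figure D4:**
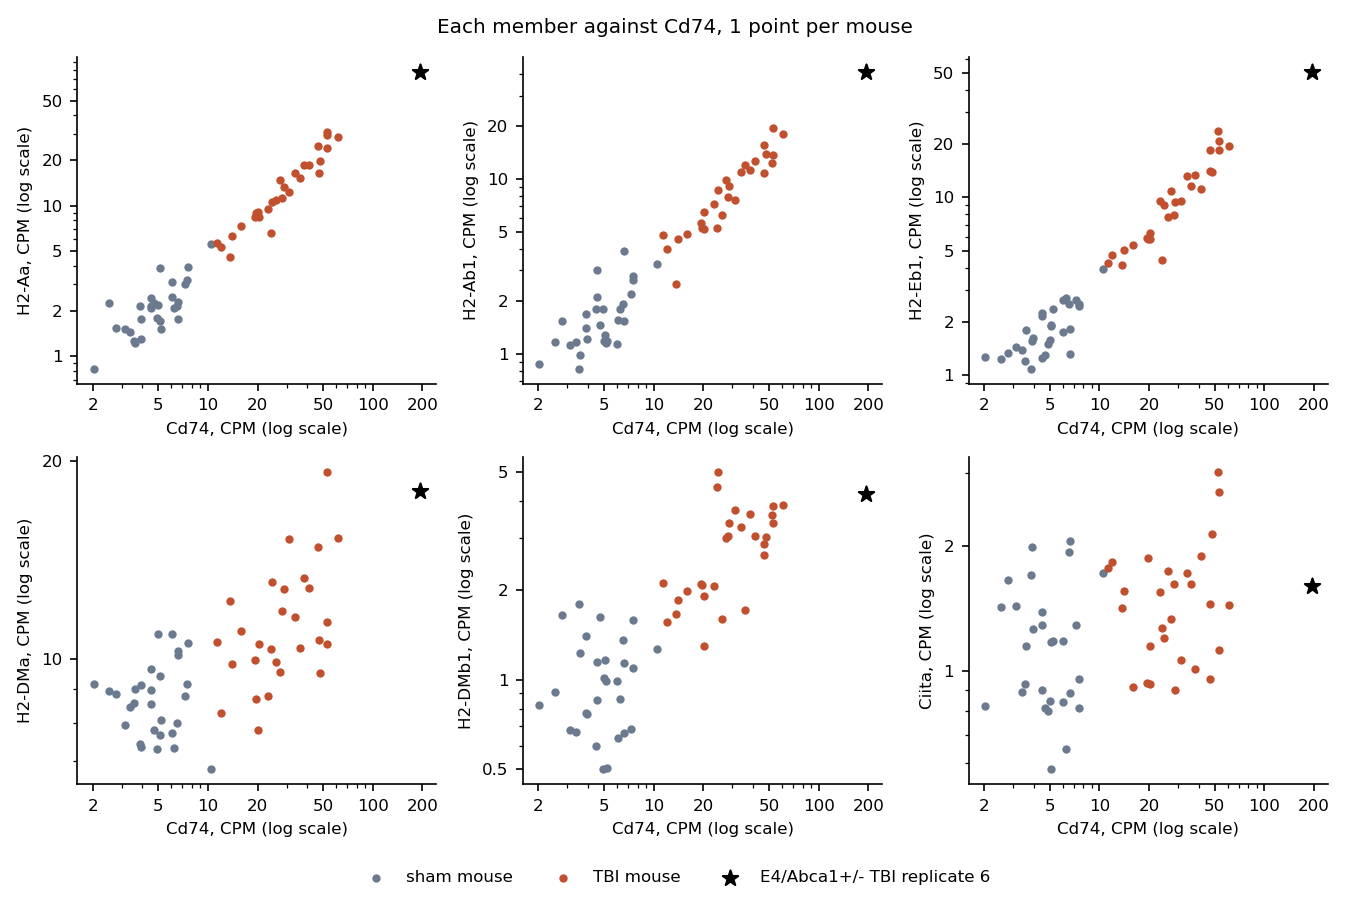
Each of the other 6 members (panels, y axis) against Cd74 (x axis), both as CPM on log axes, 1 point per mouse, sham and TBI mice marked apart. H2-Aa, H2-Ab1 and H2-Eb1 rise with Cd74 within the TBI mice (r of 0.954 to 0.976 in log2(CPM + 1) with group means removed), and Ciita does not show such a relation (r = 0.294).

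Over the whole table and all 58 mice, the genes most like Cd74 by Pearson r of log2(CPM + 1) were H2-Aa, H2-Eb1 and H2-Ab1, in this order. H2-DMb1 was number 361, H2-DMa 1098 and Ciita 3655. The 10 non-members nearest to Cd74 were H2-K1, H2-D1, H2-Q4, B2m, Gbp2, Itm2b, C1qa, Psmb8, Unc93b1 and Nlrc5. This list mixes the step from sham to TBI with the variation between mice. Within the 29 TBI mice, with group means removed, the nearest non-members were H2-K1 (r = 0.885), H2-D1 (0.875), H2-Q4 (0.871), H2-Q7 (0.865), Nlrc5 (0.859), Ccl8 (0.850), Ccl5 (0.810), Ifi47 (0.807), Psme1 (0.806) and B2m (0.801). H2-K1, H2-D1, H2-Q4 and H2-Q7 encode MHC class I heavy chains, B2m their light chain and Nlrc5 the class I transactivator. The class I genes share near-identical stretches, so their single values are uncertain. Without replicate 6 of E4/Abca1+/- TBI the list began with Gbp2 (r = 0.921), H2-K1 (0.916), Tapbp (0.906) and H2-D1 (0.898). Clec7a had r = 0.326 with all TBI mice and 0.699 without that mouse. These r are descriptions over mice that share groups and dissection.

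The further genes of the pathway were taken as lists. Of 41 genes listed, 35 were in the table. In the averaged comparison of TBI with sham 25 were higher and 1 lower, beside 29% of all genes called higher. In the single genotypes 21 were higher and 0 lower (E3/Abca1+/+), 22 and 1 (E3/Abca1+/-), 18 and 0 (E4/Abca1+/+) and 22 and 0 (E4/Abca1+/-), beside the 13.3%, 13.7%, 9.24% and 19.7% of all genes called higher. The median log2 fold change of the 35 in the averaged comparison was 0.72, and that of all genes 0.01.

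Of the further class II genes, both in the table rose, H2-Oa by 1.18 ± 0.23 (SE) on the log2 scale and H2-Ob by 1.58 ± 0.15. Every gene of the table reached 1 CPM in at least 6 mice. H2-Oa had at most 0.774 CPM in sham mice and could reach that only through TBI mice, so its rise is no independent result. They encode the chains of DO. H2-Ea, H2-Eb2 and H2-DMb2 were not analysed here.

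Of the 10 genes of endosomal processing and turnover, 9 rose. Ctss rose by 1.89, Ifi30, a thiol reductase of the endosome, by 2.05, the cathepsin genes Ctsd by 1.73, Ctsz by 1.61, Ctsl by 0.86 and Ctsb by 0.67, and the asparaginyl endopeptidase gene Lgmn by 0.72. Sppl2a, which cleaves the last stub of the invariant chain, rose by 0.25. Of the ubiquitin ligases that remove class II from the surface, Marchf8 rose by 0.14 and Marchf1 was at 0.03 (edgeR, adjusted p = 0.382).

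Of the 15 promoter factors and interferon signal genes, 8 rose and 1 fell. The factors that bind the X and Y boxes moved little. Rfx5 rose by 0.16 and Nfya by 0.13, Nfyb fell by 0.12, and Rfxank (0.03), Rfxap (-0.0041), Nfyc (-0.03) and Creb1 (-0.06) did not pass. The myeloid factors Irf8 (1.71) and Spi1 (1.64) rose, as did Irf1 (0.84) and the interferon gamma receptor genes Ifngr1 (0.90) and Ifngr2 (0.08). Jak1 (-0.03) and Jak2 (-0.04) did not pass.

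All 4 costimulation genes rose, the activating ligand genes Cd86 by 1.63, Cd80 by 0.89 and Icosl by 0.65, and Cd274, which encodes the inhibitory ligand PD-L1, by 1.17. Of the ligands and partners of surface CD74, the co-receptor genes Cd44 and Cxcr4 rose by 2.07 and 1.85, while the ligand genes Mif (-0.01) and Ddt (0.05) did not pass.

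**Figure D5:**
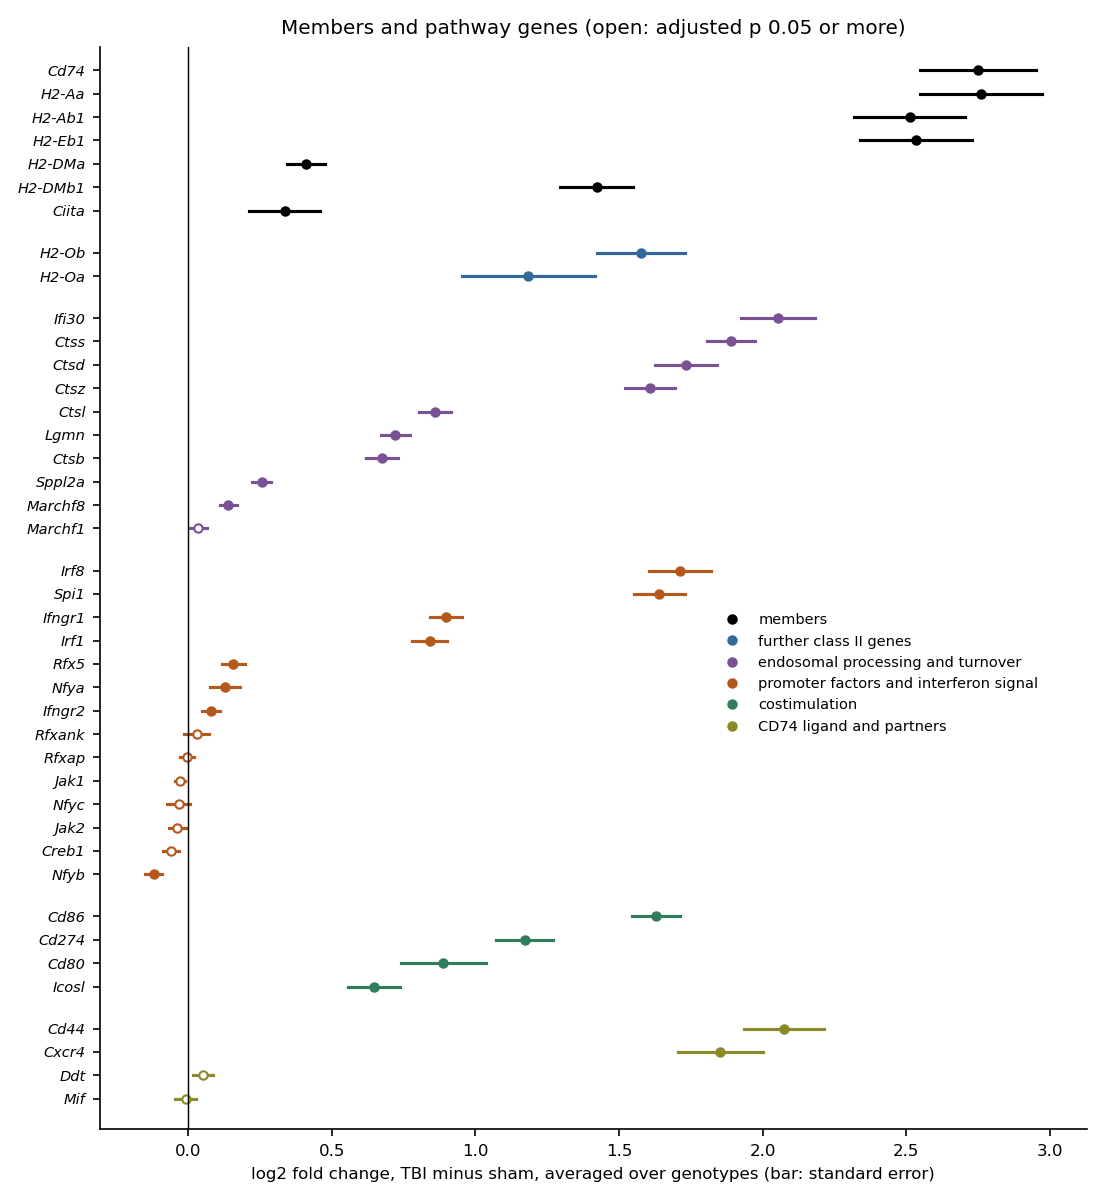
Log2 fold change of TBI over sham averaged over the 4 genotypes (x axis), with its standard error, for the members and the further pathway genes named in the text, by list. Cd74 and the chain genes lie between 2.51 and 2.76, above all listed genes, while Rfx5, Rfxap, Rfxank, Nfya, Nfyb and Nfyc lie between -0.12 and 0.16.

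Between injured groups, none of the 35 genes passed for Abca1+/- against Abca1+/+ in E4 mice, and 4 were higher in E4/Abca1+/- than in E3/Abca1+/- TBI mice by edgeR's quasi-likelihood test. These were Cd86 (log2 fold change 0.84, adjusted p = 0.0105), Ctss (0.69, adjusted p = 0.0220), Irf1 (0.46, adjusted p = 0.0289) and Ctsl (0.44, adjusted p = 0.0404). Over all genes, 1.35% were called higher there.

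Markers of the cell types that can carry class II, and of T cells, moved with the injury as well. All 8 microglial markers rose in the averaged comparison, which called 29% of all genes higher. Their summed level was 332 to 499 CPM in sham and 585 to 1155 CPM in TBI mice. It was highest in the E4/Abca1+/- TBI group, at 937 ± 148 CPM (SD, n = 8). Of 7 markers of border-associated macrophages 6 rose (sum 4.52 to 24.4 CPM in sham, 6.22 to 39.96 CPM in TBI), and all 4 of monocytes rose (13.8 to 27.1 and 17.2 to 47.9 CPM). Most of the monocyte sum was Vcan, with medians of 18.7 CPM in sham and 22.5 CPM in TBI mice, which rose by 0.28 on the log2 scale. Ccr2, Ly6c2 and Plac8, with sham medians of 0.339, 0.0718 and 0 CPM, rose by 2.68, 2.58 and 3.35. Of 6 dendritic cell markers 4 rose and 1 fell (25.4 to 39.6 and 33.9 to 66.2 CPM). Siglech, on both this and the microglial list, had medians of 15.8 CPM in sham and 23.2 CPM in TBI mice. On the log2 scale Itgax rose by 3.98, Cd209a by 1.09, Clec10a by 0.94 and Siglech by 0.55. Flt3 fell by 0.33, and Zbtb46 was at -0.12 (edgeR, adjusted p = 0.0726). The T cell markers rose, 4 of 4, from a sum of 1.35 to 4.21 CPM in sham to 2.46 to 16.3 CPM in TBI mice. On the log2 scale Cd8a rose by 3.58, Trac by 1.06, Cd4 by 0.68 and Lck by 0.52. Cd4, the marker of the T cells that read class II, had medians of 0.663 CPM in sham and 0.745 CPM in TBI mice. Among the single genotypes it was called in E4/Abca1+/- alone (edgeR, adjusted p = 0.0379), and in E3/Abca1+/- it was at -0.22. Every gene of the table reached 1 CPM in at least 6 mice. Ccr2, with at most 0.610 CPM in sham mice, could do so only through TBI mice, and Plac8 and Cd8a had a sham median of 0 CPM. Being listed thus favoured a rise in such genes, so these counts are no test of it. Of the B cell list only Ighm was in the table, and it rose by 0.33. The defining markers Ccr7, Xcr1, Clec9a, Cd79a, Ms4a1 and Cd3e were not listed in the table. Per genotype, the summed markers in the injured E3/Abca1+/+, E3/Abca1+/- and E4/Abca1+/+ groups were 756, 716 and 731 CPM for microglia and 4.66, 3.61 and 4.79 CPM for T cells, against 7.33 ± 4.04 CPM for T cells in E4/Abca1+/- TBI. In that last group the highest Cd4 was 11.3 CPM, against a median of 1.06 CPM in the mice other than replicate 6. The part of these cell types in the members' values was not tested.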

How the data were processed

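RNA-seq libraries of 58 mice in 8 groups were used, 1 column per mouse. The authors deposited raw read counts per gene, made with Subread/featureCounts v1.5.0. The submitters' processing notes name mm10, and annotation, strand setting and gene filter are not given in the sources used here. Whole-number counts were not normalized before deposit. Of the 15171 genes, 23 symbols had been turned into dates, and 2 blank lines were dropped. Groups followed the labels.

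Counts were tested with edgeR 4.0.16 (R 4.3.3), TMM factors over all mice (0.954 to 1.04), filterByExpr (which removed no gene), quasi-likelihood tests on the groups compared, and Benjamini-Hochberg adjustment over all genes with a threshold of 0.05, two-sided. Alternatives were DESeq2 1.42.0 (Wald test and size factors), the exact test of edgeR, unfiltered genes, a minimum of 1 CPM in 6 mice, libraries thinned to 4421308 reads, sex added to the model, 1 model of all 58 mice and each mouse left out. Added after seeing the data were TMM within groups, Ttr as a covariate, and fits without E4/Abca1+/- TBI replicate 6 (highest Cd74) or 8 (low hippocampal genes) or E4/Abca1+/- sham replicate 2 (high Clec7a). CPM per kb used the transcript paired with RefSeq. Scripts were tested on simulated data. No pair of the 183 within-group pairs held identical counts. Mice are biological replicates, and counting error is largest for H2-DMb1 and Ciita.

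Named were the 7 members, the pathway and marker lists, and the 10 non-members most like Cd74 by Pearson r of log2(CPM + 1). Members and lists were chosen with earlier results of these data known. H2-Ob, Psmb8 and the other genes of the chromosome 17 stretch, Clec7a and the promoter letters were chosen after values or sequences were seen. Some listed genes are not reported here by name, and the counts of their lists include them. RefSeq promoter windows were read for 4 of the 7 members. Chromosome 18, where Cd74 lies, was left out of that reading. Of all genes, 98.9% were matched to RefSeq by identifier.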

Additional observations from a re-analysis of the deposited data

Results flagged for a closer look

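Of 56 sets of values (7 members in 8 groups), 8 held a mouse whose gap to the nearest of its group was large for the group's range by Dixon's test at the 95% level. Chance alone sets about 1 in 20 groups apart. Of these, 4 came from 1 mouse, E4/Abca1+/- TBI replicate 6, with 193 CPM of Cd74 (next 61.2), 77.6 CPM of H2-Aa (next 29.4), 41.1 CPM of H2-Ab1 (next 19.6) and 50.6 CPM of H2-Eb1 (next 20.7).

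The others were of low counts. H2-Ab1 was at 3.00 CPM in E4/Abca1+/+ sham replicate 5 (next 1.80) and H2-Eb1 at 3.96 CPM in E3/Abca1+/+ sham replicate 2 (next 1.90). Ciita was at 3.02 CPM in E4/Abca1+/+ TBI replicate 6 (next 1.87) and at 2.69 CPM in E4/Abca1+/- TBI replicate 1 (next 1.60).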

How the results depend on the processing

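The counts of members called after TBI kept their direction under each alternative run, at 5 in E3/Abca1+/+, 5 to 6 in E3/Abca1+/-, 5 to 6 in E4/Abca1+/+ and 6 in E4/Abca1+/-, also with each mouse left out (5, 6, 5 to 6 and 6). At an unadjusted p under 0.05 the counts were 4 for Abca1 in E4 TBI, 1 for E4 versus E3 in Abca1+/+ sham, 4 for E4 versus E3 in Abca1+/- TBI, 3 for isoform by injury in Abca1+/- and 1 for isoform by Abca1 in TBI, and with 1 model of all 58 mice 2 for Abca1 in E4 TBI and 3 for E4 versus E3 in Abca1+/- TBI, in place of 0. Signs turned for values near 0, none of them called. Ciita in E3/Abca1+/+ ran from -0.14 to 0.12 with a mouse left out. Ciita for E4 versus E3 in Abca1+/- TBI ran from -0.082 to 0.17 with a mouse left out and was -0.36 in thinned libraries. The relation of Cd74 to H2-DMb1 in sham mice was r = -0.072 in thinned libraries. There the sham relation of Cd74 to H2-Ab1 also lost its call (r = 0.44, adjusted permutation p = 0.0567). The cause was not tested.

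Counts over all genes moved more. They ran from 2309 (thinned) to 4006 against 3601 for TBI in E3/Abca1+/-, from 3 (Ttr as a covariate) to 730 (DESeq2) against 345 for Abca1 in E3 sham, 6 to 169 against 14 in E3 TBI, 56 to 447 against 132 in E4 sham, and 62 (without replicate 6) to 1359 (single fit) against 206 in E4 TBI. For E4 versus E3 they ran from 33 to 118 against 54 (Abca1+/+ sham), 24 to 91 against 32 (Abca1+/+ TBI), 189 to 1369 against 775 (Abca1+/- sham) and 203 to 918 against 416 (Abca1+/- TBI). Isoform by Abca1 in TBI gave 0 to 67 against 1, isoform by injury in Abca1+/- 0 to 3 against 0, sex 94 to 2083 against 1539, and sex by injury 0 to 1 against 0. Higher calls were 51.3% to 61.7% of all calls for TBI in E4/Abca1+/-, against 60.8%.

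No paired analysis was possible because the labels carry no replicate numbers, so that numbers given in accession order name mice and pair none. Depth limits Ciita and H2-DMb1 most, with lowest counts of 4 and 3 reads.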
